A study of Homo sapiens with 2 samples.

Results

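The S100 proteins are small calcium-binding proteins, and 10 of their genes are described here, chosen as a fixed list of symbols: S100A2, S100A4, S100A6, S100A8, S100A9, S100A10, S100A11, S100A14, S100A16 and S100P. They are 10 of 26506 genes in the deposited tables and 10 of 21 S100 genes there. RNA came from human corneal epithelial cells, an established line (ATCC CRL-11515), grown in 2 media and harvested at 72 hours. KSFM is a serum-free medium made for keratinocytes. The special medium had DMEM/F12 as its base, to which 10% fetal bovine serum, CaCl2 (1 mM), 10 ng/mL of EGF and 1x antibiotic/antimycotic had been added. Both groups are the same line, with no genetic difference between them stated. For each medium the RNA of 3 biological replicates was pooled into 1 library. There is therefore no spread between replicates and no test between media, and base medium, serum, calcium and EGF cannot be told apart.

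S100 proteins carry a pair of EF-hands, helix-loop-helix units, of which the second holds the canonical calcium-binding loop. Most work as dimers that open on binding calcium and then grip a partner such as an annexin or a cytoskeletal protein; some are also released and act on receptors such as RAGE and TLR4. In stratified epithelia several of them mark basal or differentiating layers, and S100A8 with S100A9 forms calprotectin, an antimicrobial that withholds zinc and manganese.

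The canonical loop is what ties the family together, so its coding stretch is shown for each listed gene in which it was found. The search, in GENCODE release 29 coding sequences (GRCh38), asked for 12 residues with aspartate at position 1, asparagine at 3, aspartate at 5, an aliphatic residue at 8, aspartate, asparagine or serine at 9, phenylalanine at 10 and glutamate at 12. It matched once in 8 of the 10 genes. Capitals mark the codons of positions 1, 3, 5 and 12, and the letters run along the coding strand. S100P lies on chromosome 4 and the others on chromosome 1; S100A9 and S100P are on the plus strand and the rest on the minus strand.
S100A9 (chr1:153360692-153360727): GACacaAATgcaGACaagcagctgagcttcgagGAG
S100A8 (chr1:153390175-153390210): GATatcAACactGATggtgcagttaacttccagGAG
S100A6 (chr1:153534753-153534788): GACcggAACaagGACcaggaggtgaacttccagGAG
S100A4 (chr1:153543843-153543878): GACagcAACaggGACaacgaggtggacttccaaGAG
S100A2 (chr1:153561511-153561546): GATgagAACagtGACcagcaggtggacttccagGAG
S100A16 (chr1:153607612-153607647): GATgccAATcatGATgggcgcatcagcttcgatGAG
S100A11 (chr1:152032743-152032778): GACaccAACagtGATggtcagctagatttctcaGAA
S100P (chr4:6696938-6696973): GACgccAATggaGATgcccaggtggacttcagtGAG
S100A10 and S100A14 had no match; S100A10 is known as the family member that does not bind calcium. The 3 genes that differed most between the media, S100A9, S100A8 and S100A2, all hold the loop. The encoded proteins run from 90 residues in S100A6 to 114 in S100A9. Over the 45 pairs of listed genes the coding sequences were 46.9% to 69.0% identical, with S100A2 and S100A4 the closest pair and 17 bases the longest identical run. All 10 genes had exactly whole counts, with no rounding allowed, in both libraries, where estimated counts are fractional for genes whose reads are shared out. Among all genes in the tables, 11.3% (KSFM) and 8.05% (special medium) had fractional counts, so whole counts are usual and not particular to these genes.

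Of the 10 listed genes, S100A8 and S100A9 were higher in the special medium, S100A2 was lower, and 7 were called neither. All 10 reached 1 CPM, the count relative to the scaled library total, in at least 1 library. A gene was called when it also differed by at least 2-fold with an exact 95% interval excluding equality. A gene under 1 CPM in 1 library was measured only through the library where it stood higher, which favoured its call. Such named genes include S100A8, CD14, PLG, CALB1, CDH5 and TCHH, called higher, and LYZ and TRPV3, called lower. The interval covers counting error only, since each medium has 1 library and no spread between replicates. Reads lacking molecular identifiers may repeat a molecule, which would make the interval too narrow. Of the 13632 genes at 1 CPM or more, 9.86% were called higher and 6.77% lower (1344 and 923 genes). On the deposited TPM values, a level per unit of transcript length, only a 2-fold difference was asked, with no interval and a pseudocount of 1. That split was 1266 and 349, and 928 and 536 once the values were centred on the median gene. With 10 genes listed, each share rests on 1 or 2 genes, so nothing particular to the group is read from them. Taken as special medium over KSFM, the log2 ratio had a median of 0.35 among the listed genes and −0.00 among all genes measured.

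**Figure D1:**
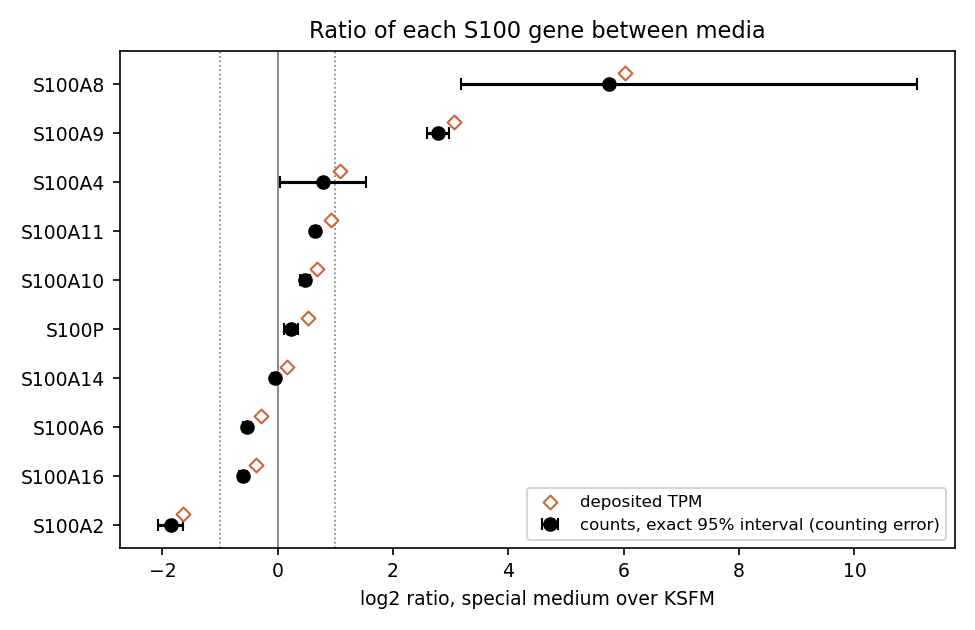
Log2 ratio of special medium over KSFM for each of the 10 S100 genes. Black points are scaled counts with exact 95% intervals for counting error (1 library per medium); open diamonds are deposited TPM ratios, and dotted lines mark 2-fold. S100A8 and S100A9 lie to the right of the 2-fold line with their whole intervals and S100A2 to the left.

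The listed messenger RNAs are short, and short genes as a class behaved differently from the rest. Relative effective length, the counts a gene yields per TPM with the median gene set to 100, ran from 13.1 in S100A8 to 39.9 in S100A16. Among the 1333 genes measured that were no longer than S100A16 on this scale, 8.33% were called higher and 18.9% lower, and the median log2 ratio was −0.41. The TPM ratio exceeded the count ratio by 1.12 times for the median gene, by 1.16 times for the median short gene and by 1.16 to 1.23 times for the 10 listed genes. Length moved with the ratios, and removing the trend of ratio on length raised the log2 ratio of each of the 10 listed genes. The values so obtained are given beside each gene.

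**Figure D2:**
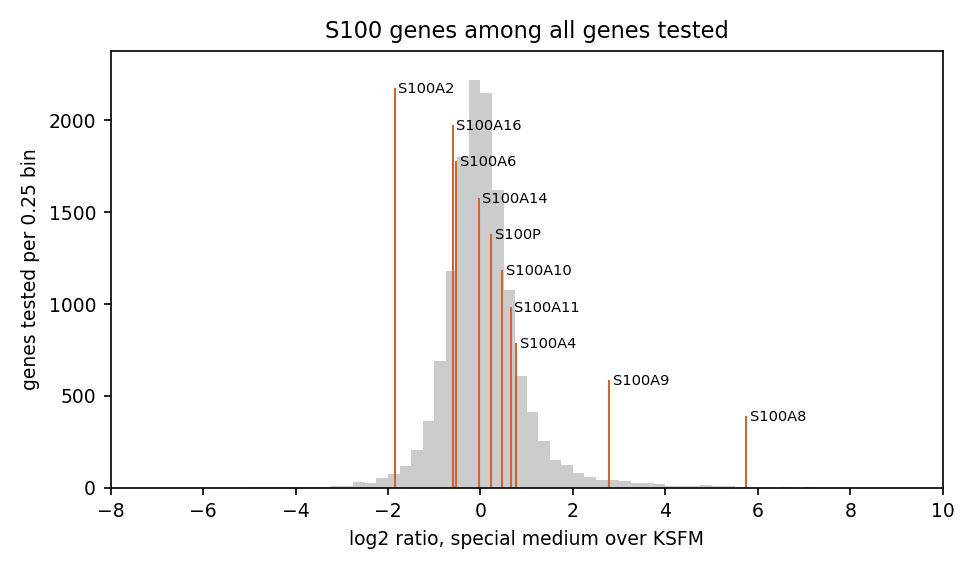
Histogram of log2 ratios (special medium over KSFM) of the 13632 genes at 1 CPM or more, in bins of 0.25, with a line at the ratio of each S100 gene; line heights only separate the names. Most S100 genes sit inside the bulk of the histogram, with S100A2 in the lower tail and S100A9 and S100A8 in the upper tail.

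S100A9, a calprotectin subunit, had 268 KSFM counts against 1444 in the special medium, or 12.4 and 85.3 CPM. It was 6.87-fold higher in the special medium (95% interval 6.03 to 7.86), at the 98.4th percentile of all ratios. On the TPM scale it went from 47.2 to 391, an 8.30-fold ratio, and from the eighth to the fourth most abundant of the 10 genes. Its partner S100A8 had a single KSFM count (1) against 42 in the special medium, or 0.0463 and 2.48 CPM. The ratio of 53.6 (9.10 to 2165) rests on a single KSFM read. On the log2 scale it was 5.74, against 3.54 on TPM with a pseudocount of 1, 3.39 after centring those values and 6.40 without the length trend, so its size is poorly fixed. For S100A9 the log2 ratio was 2.78, and 3.34 without that trend.

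The calprotectin subunits were far from equal in abundance. In the special medium S100A9 was at 391 TPM and S100A8 at 12.95 TPM, a ratio of 30.2 (counting interval 22.2 to 42.1). In KSFM the single S100A8 count allows no such ratio. S100A12, the related calgranulin that lies between them on chromosome 1, had 0 counts in both libraries, which at the exact 95% limit allows 0.171 CPM (KSFM) and 0.218 CPM (special medium).

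S100A8 and S100A9 are best known from neutrophils and monocytes, so the markers of such cells were read beside them. Of 14 myeloid markers 3 reached 1 CPM, 1 called higher (CD14, on 2 and 62 counts), 1 lower (LYZ, on 48 and 11) and 1 neither (CSF1R, on 78 and 45). The list summed to 149 KSFM counts and 137 special-medium counts, and to 5.64 and 9.68 TPM, of which CD14 held 0.12 and 5.27 TPM. CD68, a lysosomal gene of macrophages that was grouped with the receptors and not in that list, had 1230 and 1011 counts (59.5 and 70.9 TPM) and was not called. The part of such cells in the S100A8 and S100A9 values was not tested. The pan-leukocyte gene PTPRC had 1 and 0 counts, the granule genes MPO and ELANE 0 in both, CSF3R 2 and 6 and ITGAM 12 and 5. In bulk RNA, fewer cells of a type and less RNA per cell cannot be told apart.

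The upstream sequences of both genes were read because they differed in the same direction and are neighbours, with S100A12 between them. RefSeq start sites (GRCh38.p14) were found for all 10 genes, 14 windows of 250 bases in all. The letters TATAAA began 29 bases before the start in S100A9 and 29 bases before the middle of the 3 starts of S100A8. They began 28 bases before the start of S100P and 31 bases before that of S100A4. For S100A9, S100A8 and S100P the 30 bases up to the start are shown on the coding strand with those letters in capitals. The S100A4 letters begin just outside a stretch of that length, so S100A4 is not shown.
S100A9 (chr1:153357824-153357853, plus strand): cTATAAAtgccgagcctgcacagctctggc
S100A8 (chr1:153391074-153391103, minus strand): cTATAAAaaggagctgcctctcagccctgc
S100P (chr4:6693848-6693877, plus strand): ctTATAAAgcaccaagaggctgccagtggg
TATAAA occurred on either strand in 10.7% of 35116 RefSeq windows of that length, and in 5 of the 14 windows of the listed genes, from S100A4, S100A8, S100A9 and S100P. S100P was 1.17-fold higher in the special medium and S100A4 1.72-fold, neither of them called. Letters are a description of sequence, not of use.

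The whole S100A9 window shows the other matches found there. Capitals mark TATAAA, the C/EBP-like letters TTNNGNAA read on the opposite strand, and the GC box GGGCGG, also on the opposite strand (chr1:153357604-153357853, plus strand).
S100A9: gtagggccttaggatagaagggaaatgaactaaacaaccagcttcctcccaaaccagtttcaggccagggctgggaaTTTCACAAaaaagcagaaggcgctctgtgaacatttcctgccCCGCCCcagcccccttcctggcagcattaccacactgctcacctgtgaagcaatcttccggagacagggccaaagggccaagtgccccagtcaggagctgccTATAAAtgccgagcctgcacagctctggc
TTNNGNAA occurred in 7 of the 14 windows of the listed genes and in 33.2% of all windows. GGGCGG occurred in 5 of the 14 and in 42.6% of all. The STAT-type letters TTCNNNGAA occurred in 0 of the 14 and in 6.57% of all. Windows of 1 gene can overlap. All 5 motifs were searched on both strands.

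S100A2, a mainly nuclear S100 protein of basal epithelial cells, was the listed gene called lower. It had 948 KSFM counts against 205 in the special medium, or 43.9 and 12.1 CPM, a 3.63-fold difference (3.11 to 4.24). Its ratio lay at the 1.52nd percentile of all genes measured. On the TPM scale it went from 93.02 to 29.78, a 3.12-fold difference, and from the seventh to the eighth place of the 10. Without the length trend its log2 ratio was −1.69 in place of −1.86.

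The AP-1 letters TGANTCA, a palindrome, were found in 1 of the 14 windows, at the upstream of the 2 S100A2 starts, 52 to 46 bases before it. They occurred in 6.57% of all RefSeq windows. The window is shown because it belongs to the only listed gene called lower, with the match in capitals (chr1:153565845-153566094, minus strand).
S100A2: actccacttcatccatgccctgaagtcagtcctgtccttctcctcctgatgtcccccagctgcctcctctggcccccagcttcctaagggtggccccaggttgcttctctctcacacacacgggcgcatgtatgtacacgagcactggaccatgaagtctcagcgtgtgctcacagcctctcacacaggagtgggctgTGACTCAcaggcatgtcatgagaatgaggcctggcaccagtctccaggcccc
The match was found after S100A2 was known to be lower, and nothing about AP-1 was measured.

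The 6 most abundant listed genes in KSFM differed by less than 2-fold between media. S100A11, which binds ANXA1 and is found in the cornified envelope of keratinocytes, led in both, at 705 TPM in KSFM and 1334 TPM in the special medium. On counts it was 1.57-fold higher (1.51 to 1.64; 4148 and 5109 counts) and so was not called. It passed 2-fold, at 2.22-fold, once the trend of ratios on effective length was removed. S100A10, the partner of ANXA2 in a surface complex that captures plasminogen, was 1.39-fold higher (1.31 to 1.47), from 207 to 332 TPM on 2340 and 2542 counts; its log2 ratio was 0.47, and 0.62 without the trend.

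S100A6 (calcyclin), which binds ANXA11 and the ubiquitin-ligase adaptor CACYBP, had 4676 and 2538 counts and was 1.44-fold lower in the special medium (1.38 to 1.52), at 675 and 555 TPM. S100A16, a widely expressed member, had 5698 and 2940 counts and was 1.52-fold lower (1.45 to 1.59), at 424 and 326 TPM. Both intervals exclude equality while the differences stay under 2-fold. Without the length trend the log2 ratio of S100A6 was −0.15 in place of −0.53, and that of S100A16 −0.53 in place of −0.60.

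S100A14, an epithelial member found at cell borders, had the ratio closest to equality. It had 6068 and 4619 counts, 281 and 273 CPM, and an interval from 0.934 to 1.01 around a ratio of 0.971. It was the only one of the 10 whose interval includes equality, and its direction turned on the TPM scale, from 535 to 600, where the median gene also shifted upward. Its log2 ratio turned from −0.04 to 0.10 without the length trend. S100P, which binds ezrin and RAGE, had 1102 and 1013 counts and was 1.17-fold higher (1.08 to 1.28), at 225 and 323 TPM; without the length trend it was 1.80-fold higher.

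S100A4, which binds nonmuscle myosin and is widely used as a mesenchymal marker, was scarce, with 29 KSFM counts and 39 in the special medium. The ratio of 1.72 (1.03 to 2.88) is within 2-fold on counts, 2.10 on TPM (5.89 and 12.4) and 2.65 without the length trend, so its call depends on the scale. The GENCODE bounds of S100A4 overlap S100A3 on the same strand, and reads in the shared part cannot be assigned with certainty. The single RefSeq start of S100A4 (153545806, minus strand) lies outside the S100A3 bounds (153547329 to 153549372). Of 10 fibroblast markers 2 reached 1 CPM and none was called: COL1A1 had 166 and 143 counts and FBLN1 2477 and 1873, while LUM, KERA and THY1 had 0 in both. Those markers summed to 90.2 and 95.6 TPM, of which FBLN1 alone held 87.56 and 92.35 TPM. Their part in the S100A4 values was not tested.

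**Figure D3:**
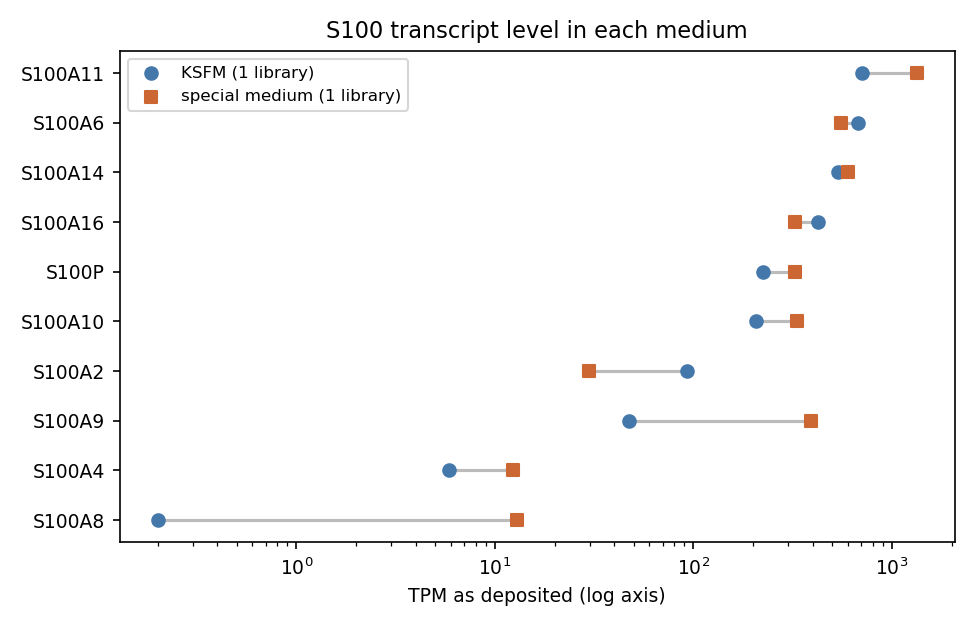
Deposited TPM (log axis) of each of the 10 S100 genes in KSFM (circles) and the special medium (squares), 1 library each, joined by a line per gene and ordered by the KSFM level. S100A9 and S100A8 move furthest to the right and S100A2 furthest to the left, while S100A11 leads in both media.

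The order of abundance, read per length in TPM, was S100A11, S100A6, S100A14, S100A16, S100P, S100A10, S100A2, S100A9, S100A4 and S100A8 in KSFM. In the special medium it was S100A11, S100A14, S100A6, S100A9, S100A10, S100A16, S100P, S100A2, S100A8 and S100A4. Neighbours whose 95% counting intervals overlapped were S100A11 and S100A6, and S100P and S100A10, in KSFM. In the special medium they were S100A10 (319 to 345 TPM), S100A16 (315 to 338) and S100P (304 to 344), and S100A8 (9.33 to 17.5) and S100A4 (8.80 to 16.92). On scaled counts the 10 genes summed to nearly the same level, 1171 CPM (KSFM) against 1211 CPM (special medium). The TPM ratio of each stood above its count ratio, and the TPM sums lay further apart. By TPM the 10 genes together held 2919 in KSFM and 3917 in the special medium, or 0.292% and 0.392% of all transcripts counted. Within that sum S100A11 went from 24.2% to 34.0% and S100A9 from 1.62% to 9.99%, while S100A6 went from 23.1% to 14.2%, S100A16 from 14.5% to 8.33% and S100A2 from 3.19% to 0.760%.

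Of the 11 other S100 genes, 2 reached 1 CPM and neither was called. S100A13, which takes part in the release of FGF1 from cells, had 1080 and 704 counts (1.20-fold lower in the special medium, 1.09 to 1.32; 174 and 172 TPM). S100A3, a hair cuticle protein, had 25 and 28 counts. S100A5 had 2 and 0 counts, S100A7 (psoriasin) 0 and 1 and S100Z 1 and 0. The remaining 6, S100A1, S100A7A, S100A7L2, S100A12, S100B and S100G, had 0 in both. S100B is used as a marker of glia and melanocytes. Of 7 markers of melanocytes and Schwann cells only PMEL reached 1 CPM, on 90 and 105 counts.

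**Figure D4:**
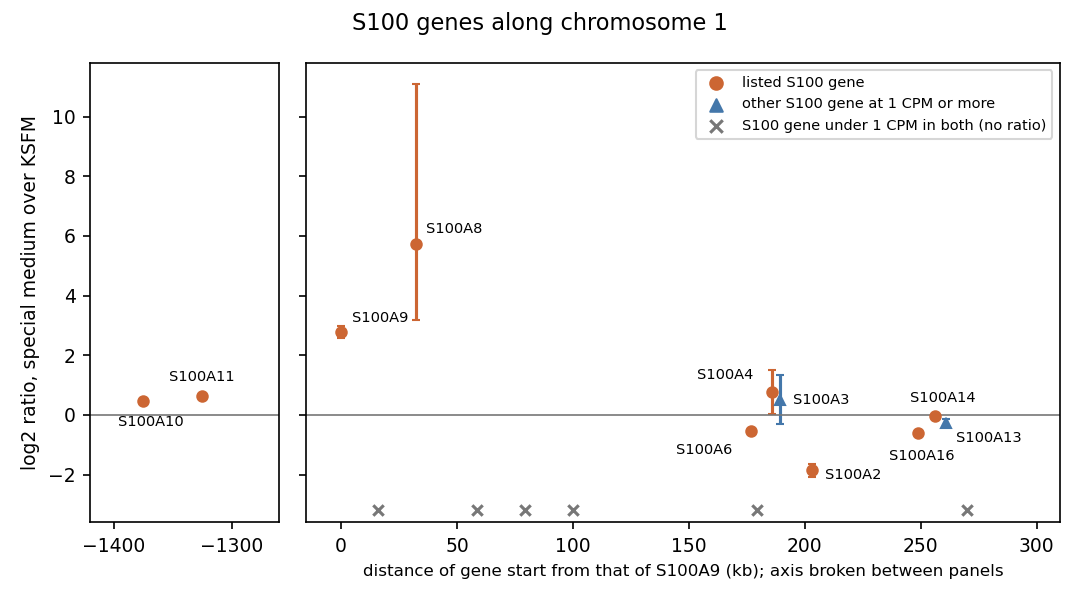
Log2 ratio (special medium over KSFM) of each S100 gene on chromosome 1 against the distance of its start from that of S100A9 in kb, with the axis broken between panels. Bars are exact 95% intervals for counting error, and crosses mark S100 genes under 1 CPM in both media. S100A9 and S100A8 are the high pair at the left of the main panel, and S100A2 is the lowest point further right.

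By position, 9 of the listed genes lie on chromosome 1 within 1634 kb of GRCh38 (GENCODE release 29 gene bounds), and S100P (6693069 to 6697170) lies on chromosome 4. S100A9 spans 153357854 to 153361027 and S100A8 153390032 to 153391188, and those neighbours were the 2 genes called higher. S100A2 (153561108 to 153567890) was lower, between S100A3 on one side, which was not called, and S100A16 on the other. The stretch is the epidermal differentiation complex, which also holds filaggrin, loricrin and the small proline-rich genes. Of 53 other genes that the tables hold between the starts of S100A10 and S100A14, 37 had 0 counts in both libraries and 2 reached 1 CPM, S100A3 and TCHH. Of the 7 fused-type genes of the complex, long proteins that open with an S100 domain, TCHH was thus the only one measured and 4 had 0 counts in both. TCHH (trichohyalin), of hair follicles, was 2.25-fold higher (1.28 to 4.04) on 21 and 37 counts.

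The annexins, membrane-binding proteins that are the best known calcium-dependent S100 partners, included several of the larger differences. The call was higher for 6 of 11 measured, lower for 0 and neither for 5, with a median log2 ratio of 1.11 beside −0.00 for all genes. Of all genes measured, 9.86% were called higher and 6.77% lower. The gene lists were chosen with earlier results of these data known, so their counts are a description only. ANXA1, the S100A11 partner, was 4.93-fold higher (4.72 to 5.15), from 117 to 578 CPM. ANXA2, the S100A10 partner and the most abundant annexin, was 2.16-fold higher (2.12 to 2.20), from 1083 to 2666 TPM. ANXA11, an S100A6 partner, was 2.29-fold higher (2.17 to 2.41), whereas S100A6 itself was 1.44-fold lower. ANXA6 had a ratio of 1.17 (1.00 to 1.36). ANXA8 (4.53-fold), ANXA8L1 (4.02-fold) and ANXA9 (4.39-fold) were also higher, and ANXA8 and ANXA8L1 are near-identical copies whose reads may have been split.

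For both pairs the partner differed more than the S100 gene. ANXA2 stood at 5.22 times the TPM of S100A10 in KSFM and 8.03 times in the special medium. ANXA1 was at 0.212 times S100A11 in KSFM and 0.630 times in the special medium. These are ratios of transcript levels in single libraries.

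Of 12 measured intracellular partners, 1 was called higher, 0 lower and 11 neither, with a median log2 ratio of 0.40. The shares over all genes measured were 9.86% higher and 6.77% lower. The one called was EZR, encoding the membrane-cytoskeleton linker ezrin that binds S100P, at 2.30-fold (2.24 to 2.37), from 327 to 754 CPM. MYH9, the nonmuscle myosin heavy chain bound by S100A4, had a log2 ratio of 0.41, AHNAK, a scaffold bound by S100A10 with ANXA2, 0.73, and CACYBP 0.05.

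Of 11 measured receptors and extracellular partners, 4 were called higher, 0 lower and 7 neither, with a median log2 ratio of 0.43. The shares over all genes measured were 9.86% higher and 6.77% lower, and this list too was chosen with earlier results known. TLR4, a receptor for S100A8 and S100A9, was 2.13-fold higher on 54 and 90 counts (log2 ratio 1.09, interval 0.59 to 1.60). LY96, a co-receptor of TLR4, had 1 count in each library. CD14, another co-receptor, was counted above with the myeloid markers and had 2 and 62 counts. AGER, which encodes RAGE, had a ratio of 1.45 (1.05 to 2.01) on 73 and 83 counts and was not called. The other 3 called in this list belong to plasminogen activation, in which S100A10 takes part. PLAU, urokinase, was 6.08-fold higher (5.84 to 6.33) and its receptor PLAUR 2.06-fold (1.87 to 2.27). PLG, with 0 and 23 counts, was at least 7.33-fold higher by the exact 95% bound. With the library at 0 set to 3 counts the PLG ratio was 9.78-fold. PLAT, the tissue plasminogen activator in the same list, was not called, at 1.03-fold (0.925 to 1.15) on 735 and 595 counts.

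**Figure D5:**
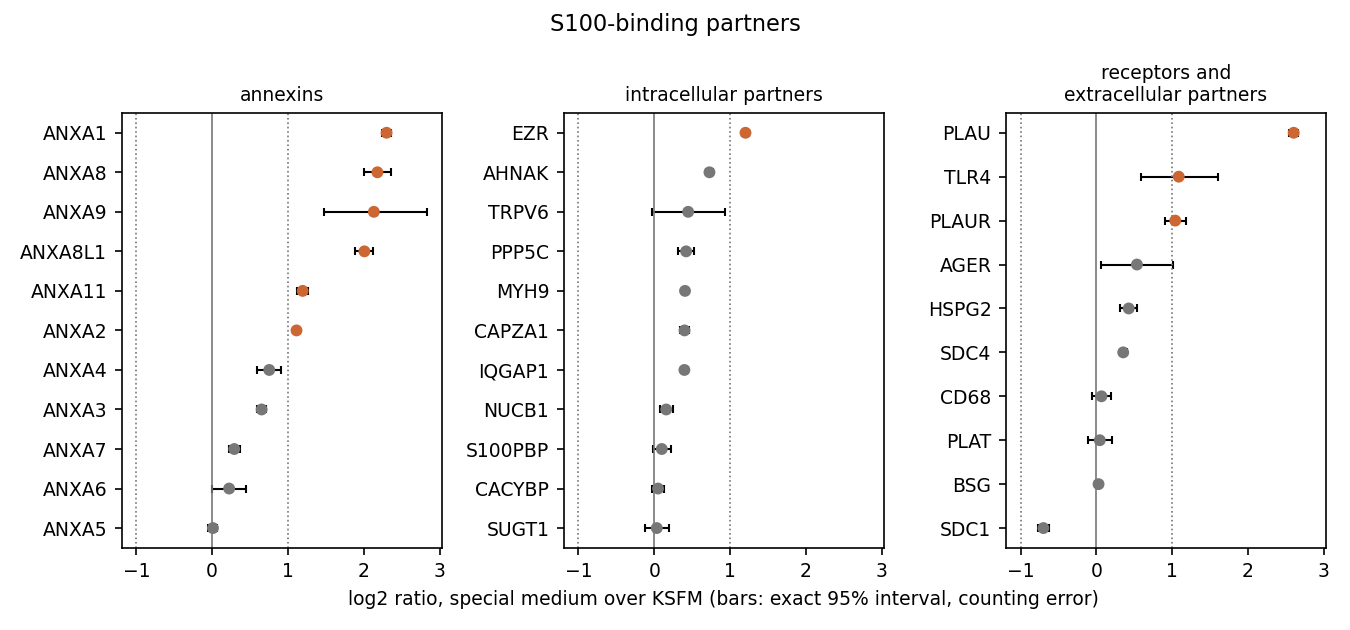
Log2 ratio (special medium over KSFM) of annexins, intracellular partners, and receptors and extracellular partners of S100 proteins at 1 CPM or more, with exact 95% intervals for counting error; PLG, at 0 counts in KSFM, and 1 intracellular partner are not drawn. Orange points were called higher and grey ones neither, and dotted lines mark 2-fold. Annexins called higher are at the top of the first panel, led by ANXA1.

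The cells carried general epithelial transcripts in both media, with KRT18, KRT8, CDH1 and EPCAM all above 100 CPM. The cornea-defining keratins were absent or nearly so: KRT12 had 0 counts in both libraries and KRT3 0 and 1, and PAX6 had 69 and 73. Of 14 epithelial markers 10 were measured, 3 called higher (KRT19 3.43-fold, KRT15 3.40-fold, KRT8 2.78-fold), 0 lower and 7 neither. Among those 7, KRT5 was 1.51-fold lower (1.40 to 1.64) and CDH1 1.25-fold lower (1.21 to 1.29). KRT18 was 1.94-fold and EPCAM 1.32-fold higher. KRT14 did not reach 1 CPM, on 4 and 10 counts. Of 6 endothelial markers 1 was measured, CDH5, on 3 and 236 counts, and the list summed to 0.30 and 7.82 TPM. The libraries held 21604652 and 16900472 counts.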

How the data were processed

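Poly(A) RNA was sequenced from stranded libraries, per the labels' protocols, 1 library per medium from 3 pooled biological replicates. Per the submitters' processing notes, HISAT2 2.1.0, RSEM (no version), fastp 0.20.0 and FastQC 0.11.9 were used with GRCh38. Which annotation and strand option served for counting is not given in the sources used here. Values the authors deposited are estimated counts per gene, rounded here, and TPM values. Totals of 21604652 and 16900472 counts were scaled by edgeR 4.0.16 TMM factors (0.999 and 1.00).

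Log2 ratios carry exact 95% Clopper-Pearson intervals conditional on the summed count, and level intervals are exact Poisson ones. A count of 0 was set to 3 counts. No genome-wide test was possible, and the call rule is given with its first use. It was run on simulated Poisson counts, which hold no spread between cultures. That run therefore cannot give the error rate of the calls made here. The members and gene lists were chosen with earlier results of these data known, and the sequence patterns after the ratios were seen. Named genes are the members, other S100 genes at 1 CPM, partners ANXA1, ANXA2, ANXA6, ANXA11, AGER and TLR4, and up to 4 called genes per list; markers and partners named as not called were chosen after their values were seen. A few genes enter list counts but are not reported here by name. Promoter windows came from a RefSeq table (GRCh38.p14), coding sequences and gene bounds from GENCODE release 29 (GRCh38).

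Alternatives were scaling by upper quartile, by total counts and by DESeq2 1.42.0, the TPM scale (pseudocount 1 or 0.1), filters, stricter rules and removal of a cubic trend on effective length. Figures were drawn with matplotlib 3.10.9 and intervals computed with scipy 1.17.1, under Python 3.11.15 (pandas 2.3.3, numpy 2.4.6); edgeR and DESeq2 ran in R 4.3.3.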

Additional observations from a re-analysis of the deposited data

How the results depend on the processing

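Under 11 alternatives S100A9 and S100A2 kept their direction, and S100A9 its call, in each; S100A2 lost its call under a 4-fold rule, which left 0 listed genes lower. With a filter of 10 CPM, S100A8 was no longer measured, which left 1 listed gene higher, and S100A4 was also dropped, giving a member median of 0.093. With the length trend removed 4 were higher (S100A4 and S100A11 added) and the median was 0.73. On TPM the member median was 0.60 with either pseudocount, where the median of all genes shifted by 0.15 (pseudocount 1) and 0.16 (pseudocount 0.1), and 3 were higher with a pseudocount of 0.1, S100A4 being the addition. Over all genes, 408 were higher and 162 lower by the 4-fold rule, 788 and 446 with the 10 CPM filter, and 837 and 395 with an interval wholly beyond 2-fold. TPM calls asked for a 2-fold difference only, with no interval. On that rule lower genes numbered 349 and 605 with pseudocounts of 1 and 0.1, and 536 after centring, where 928 were higher. S100A14 changed sign in 4 of 7 rescalings, from −0.06 to 0.17. No other listed gene changed sign. The cause of these shifts was not tested. S100A8 in KSFM rests on 1 count and S100A4 on 29 and 39, so their ratios are limited by depth. No paired analysis was possible because each medium has 1 library.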

Other observations

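Other EF-hand proteins, calcium sensors and buffers outside the S100 family, gave 5 genes called higher, 0 lower and 18 neither of 23 measured, with a median log2 ratio of 0.31. The shares over all genes measured were 9.86% higher and 6.77% lower. The calcium buffers CALB1 and CALB2 (calbindin and calretinin) were 23.6-fold (6.09 to 202) and 4.90-fold (3.409 to 7.199) higher in the special medium, the first on 2 and 37 counts. CAPN1, the large subunit of the protease calpain-1, was 2.57-fold (2.45 to 2.69) and EFHD2, an actin-binding EF-hand protein, 2.43-fold (2.29 to 2.58) higher.

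Of 14 measured genes of calcium sensing, entry and extrusion, 2 were called higher, 1 lower and 11 neither, with a median log2 ratio of −0.17. Over all genes measured the shares were 9.86% higher and 6.77% lower. TRPV4, an osmosensitive cation channel, had 26 and 58 counts and a 2.84-fold higher level (1.76 to 4.71), and ATP2B4, a plasma membrane calcium pump, 2.29-fold (2.10 to 2.49). TRPV3, a keratinocyte channel, was 3.46-fold lower (1.83 to 7.12) on 53 and 12 counts. The calcium-sensing receptor CASR had 0 counts in both libraries. Cornified envelope genes that share the chromosome 1 stretch with the S100 genes were scarcely detected: of 22 listed 21 were found, 0 reached 1 CPM and 15 had 0 in both, with 40 and 18 counts in sum. LCE1C had 16 KSFM counts against 1, and IVL (involucrin) 5 against 8.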
